A study of Homo sapiens with 8 samples.

Results

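The clustered protocadherins are the protein-coding genes of 3 neighbouring arrays on human chromosome 5, and they were chosen by symbol: PCDHA and PCDHAC genes form the α cluster, PCDHB genes the β cluster, and PCDHGA, PCDHGB and PCDHGC genes the γ cluster. The rule found 53 of the 60668 genes in the count tables, 15 in the α, 16 in the β and 22 in the γ cluster. RNA-Seq of polyA+ RNA was performed on D283-OMO cells, a derivative of the established medulloblastoma line D283 Med. All 8 libraries come from cells that carry a lentiviral, doxycycline (DOX)-inducible, FLAG-tagged OMOMYC transgene, selected with hygromycin B. OMOMYC is a dominant-negative mini-protein derived from MYC. The replicates are described as independent biological ones. In 4 libraries (OMO) the cells were untreated, and in 4 (OMO+DOX) DOX had been given for 72 h. No library of DOX-treated cells without the transgene was analysed here, so that DOX itself and OMOMYC cannot be told apart.

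Clustered protocadherins are cadherin-like proteins of the neuronal surface that bind identical copies on other cells, and the combination a neuron makes gives it an identity by which it avoids contacts with its own branches. Each α and γ gene has its own large variable exon with its own promoter, spliced to 3 short constant exons shared by the whole cluster, whereas each β gene is a single exon. Promoter choice is known to depend on DNA methylation and on CTCF and cohesin, which loop promoters to distant enhancers, and the C-type genes at the ends of the α and γ clusters follow other rules than the alternate genes.

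On GRCh38 with GENCODE 29 the α genes lie between bases 140786136 and 141012347 of chromosome 5, the β genes between 141051135 and 141249365, and the γ genes between 141330571 and 141512981, all on the forward strand. In the longest coding transcripts with 4 exons, 2866 exonic bases were common to all 15 α genes and 2181 to all 22 γ genes, while the β genes, with 1 exon, shared none. Of the 100-base stretches of these transcripts, a median of 45.9% were found in no other gene for α members, 53.2% for γ members and 92.7% for β members. Reads from the rest were divided among genes when expected counts were estimated, and 52 of the 53 members had a count that was not whole in at least 1 library. A level of a single α or γ gene is therefore partly an estimate, and the sum over a cluster does not depend on how reads were divided within it.

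The promoters of most members share a short box around the letters CGCT. The windows below show these letters for members on which the results turn. They were picked by CGCT alone, which 21.6% of all promoter windows hold at that place, so a window does not show the whole box. In PCDHAC2, with CGCT at -95 and -41, the bases before the CGCT shown (ctac) are unlike those of every other window. Whether PCDHAC2 has the box was not tested. The windows come from RefSeq (GRCh38.p14, forward strand), read 5′ to 3′, with CGCT in capitals.
PCDHA10, chr5:140855844-140855873: agccaccggatgtCGCTgtcgtccacaaaa
PCDHA11, chr5:140868886-140868915: aggcgcaaggtgtCGCTctttacttggtgg
PCDHA12, chr5:140875247-140875276: agtcacatgatgtCGCTctacactcagaag
PCDHAC2, chr5:140966422-140966451: tgagccctcctacCGCTccctttccccctc
PCDHB12, chr5:141208646-141208675: agacgcgtggtggCGCTgcaggataatatc
PCDHB14, chr5:141223266-141223295: agacacatggtggCGCTacaggataagacg
PCDHB15, chr5:141245317-141245346: caacgcatggtggCGCTgcaggctaaggct
PCDHGB1, chr5:141350028-141350057: aacctctgggcgcCGCTgtcgaccaaaagg
PCDHGA5, chr5:141364110-141364139: ggactctgagtgtCGCTgttgaccaaagtg
PCDHGB3, chr5:141370165-141370194: aggcgccgggtgcCGCTcttggctagtgct
PCDHGA6, chr5:141373838-141373867: ggactctaagcgtCGCTgttgaccaacctg
PCDHGA10, chr5:141412934-141412963: ggactctgagcgcCGCTgttcacctactag
For PCDHGB1, the member that rose with DOX, the 250 bases before the RefSeq start (chr5:141349849-141350098) are shown in full, with each CGCT in capitals.
PCDHGB1: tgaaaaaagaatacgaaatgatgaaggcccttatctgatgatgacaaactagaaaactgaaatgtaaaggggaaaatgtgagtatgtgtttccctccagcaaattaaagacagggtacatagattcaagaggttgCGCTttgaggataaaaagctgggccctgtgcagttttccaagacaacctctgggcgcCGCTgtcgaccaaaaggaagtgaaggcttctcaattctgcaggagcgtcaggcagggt
The capitals of the 12 short windows begin at positions -65 to -39 relative to the start. Members were shown only where CGCT began 100 to 30 bases before the start, so a place in that range was set in advance. The members shown include some that were lower, PCDHA10 and PCDHA11, which did not pass the test, and PCDHGB1. PCDHGB2, which fell, has no CGCT there, and for PCDHA3 and PCDHB11, which also fell, no window was found.

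RefSeq windows from 250 bases before to 50 bases after the start were found for 47 of the 53 members, and not for PCDHA3, PCDHA13, PCDHB6, PCDHB11, PCDHGA12 and PCDHGC5. The letters CGCT, on either strand, occurred in 46 of the 47 (97.9%) and in 70.0% of all 35116 promoter windows. On the forward strand and starting 100 to 30 bases before the start they occurred in 43 of 47 (91.5%), against 21.6% of all windows, and the 4 members without them there were PCDHA9, PCDHB5, PCDHB8 and PCDHGB2. The longer form TGGCGCTG, which contains CGCT, occurred on either strand in 12 of the 14 β windows, in 1 of the 20 γ windows and in 1.91% of all windows. Another longer form, TGTCGCTG, occurred in 6 of the 13 α windows, 3 of the 20 γ windows and 0.683% of all. The E-box CACGTG, a sequence that MYC and MAX can bind, was found on either strand in the windows of PCDHA9, PCDHA10 and PCDHA11, which is 6.4% of the members, against 7.26% of all windows. The 4 C-type windows held 15 to 27 CG dinucleotides (median 20.5), the 43 others 2 to 16 (median 7), and the median over all windows was 14. These letters were chosen after the sequences were seen, and a match is a description only.

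The libraries held 38390696 to 54020506 counts, and the members took 0.0155% to 0.0211% of them in OMO and 0.0111% to 0.0123% in OMO+DOX. Levels are CPM, read counts divided by the library's size after TMM scaling, and 3 counts, the floor, correspond to at most 0.0748 CPM. Genes above 1 CPM in 4 or more libraries were tested, and a gene is said to have changed at an adjusted p below 0.05 (edgeR's quasi-likelihood test, Benjamini-Hochberg over 15222 genes). As a check of the treatment, the MYC targets CAD and NCL fell, CAD from 162 ± 4.07 to 116 ± 4.74 CPM and NCL from 1550 ± 58.6 to 1140 ± 5.73 CPM (SD, n = 4), with a log2 fold change (log2FC) of -0.48 (adjusted p = 1.33e-06) and -0.44 (adjusted p = 1.23e-06) in edgeR. MYC itself was at 939 ± 75.6 and 1120 ± 56.8 CPM (log2FC 0.26, adjusted p = 0.00237, edgeR), where RNA of the transgene and of the gene cannot be told apart. Of the medulloblastoma markers, OTX2 was at 1050 ± 17.4 and 510 ± 1.79 CPM, CRX at 126 ± 6.23 and 21.0 ± 0.719, NEUROD1 at 94.4 ± 3.59 and 20.2 ± 0.808, NRL at 28.7 ± 2.48 and 2.44 ± 0.264, and EOMES, which was not tested, at 0.264 ± 0.157 and 0.777 ± 0.223, higher without overlap. Summed markers of other cell types were 0.198 to 0.767 CPM in OMO and 0.205 to 0.438 in OMO+DOX for astrocytes and 0.139 to 0.247 and 0.351 to 0.614 for blood, with HBB at 0 throughout. They were 3.42 to 4.08 and 1.17 to 1.62 for endothelium, mostly VWF, and 34.4 to 36.7 and 55.6 to 69.1 for fibroblasts, from COL1A1 and PDGFRB. The part of any of these in the results below was not tested, and in bulk RNA fewer cells that make a gene and less RNA per cell cannot be told apart.

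Most clustered protocadherins that could be tested were lower after 72 h of DOX, and PCDHGB1 alone passed the test upwards. Of the 53 members, 18 passed the filter, 6 α, 5 β and 7 γ. Of these 14 fell (4 α, 4 β and 6 γ), where 38.1% of all genes tested fell, and 1 rose, where 38.5% of all genes rose. PCDHA10, PCDHA11 and PCDHB10 did not pass the test. In the 15 members that passed it, the 4 libraries of one group did not overlap those of the other, as in 35.4% of all genes tested (lower) and 36.3% (higher). The median log2FC was -0.65 for the 18 members (-0.85 α, -0.61 β, -0.81 γ) and 0.01 for all genes tested, whose median absolute log2FC was 0.43. By edgeR or DESeq2 no member passed the stricter thresholds of the study (FDR below 0.001 and absolute log2FC above 2), which 2.75% of all genes passed downwards and 4.38% upwards, while 16 of the 18 had an unadjusted p below 0.05 in edgeR. PCDHA12, PCDHB12, PCDHGA5 and PCDHGB3 passed the filter through the untreated libraries only, so their lower level was part of how they were admitted. With a filter that treats both groups alike (mean over all 8 libraries above 0.5 CPM, chosen after seeing the data), 26 members were tested, 17 fell and 2 rose, where 37.1% and 37.4% of 16569 genes did. With more than 4 libraries required above 1 CPM, 14 members were tested, 10 fell and 2 rose (PCDHGB1 and PCDHB10), where 37.8% of genes fell and 37.8% rose. The untreated library OMO_3 was the lowest of its group in 14 of the 18 members tested.

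**Figure D1:**
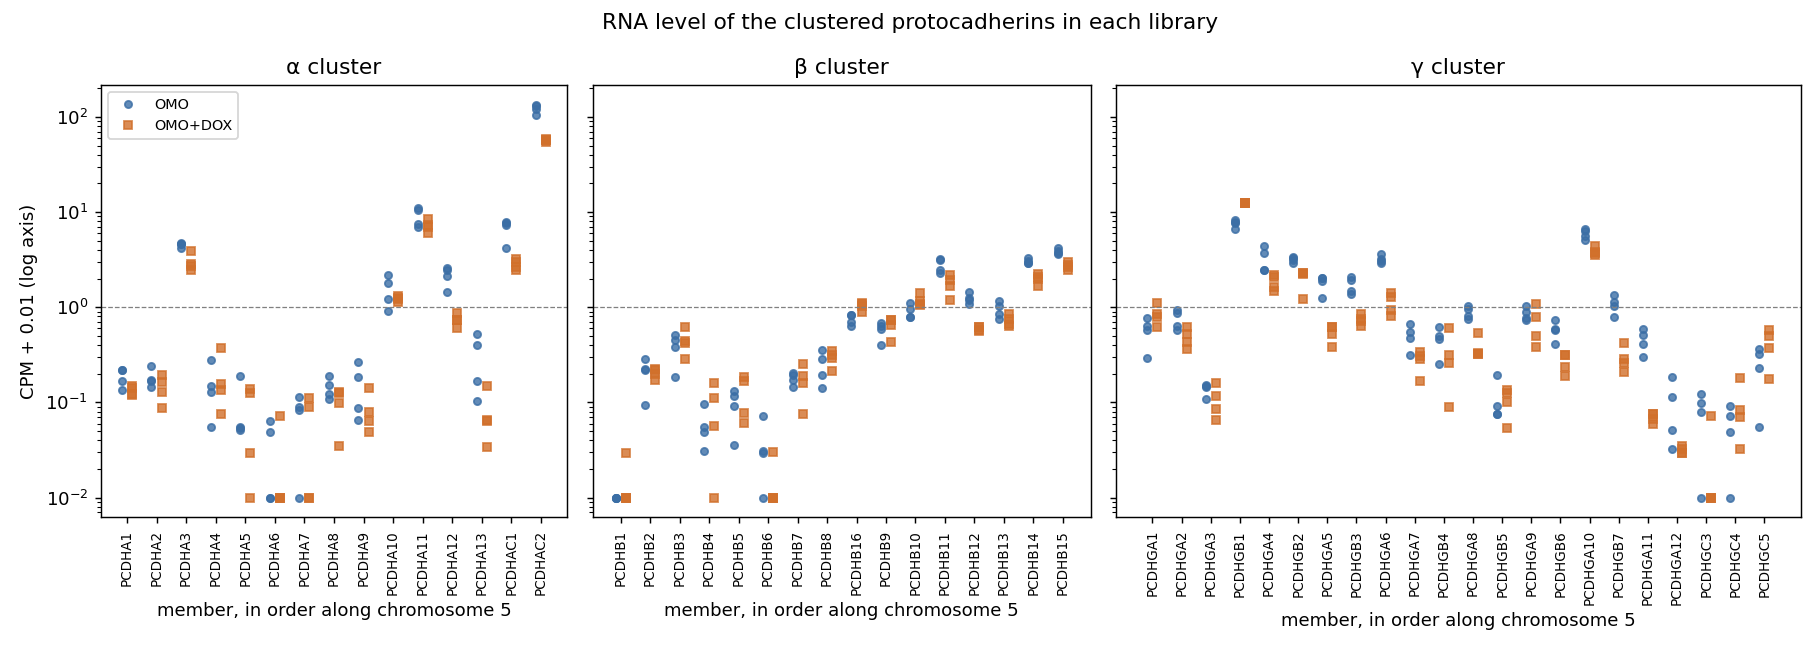
CPM plus 0.01 on a log axis for all 53 members in the 4 OMO (circles) and 4 OMO+DOX (squares) libraries, in order along the chromosome, with the dashed line at 1 CPM. PCDHAC2 stands above 50 CPM in every library, PCDHGB1 is higher in OMO+DOX, and most other members above the line are lower.

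**Figure D2:**
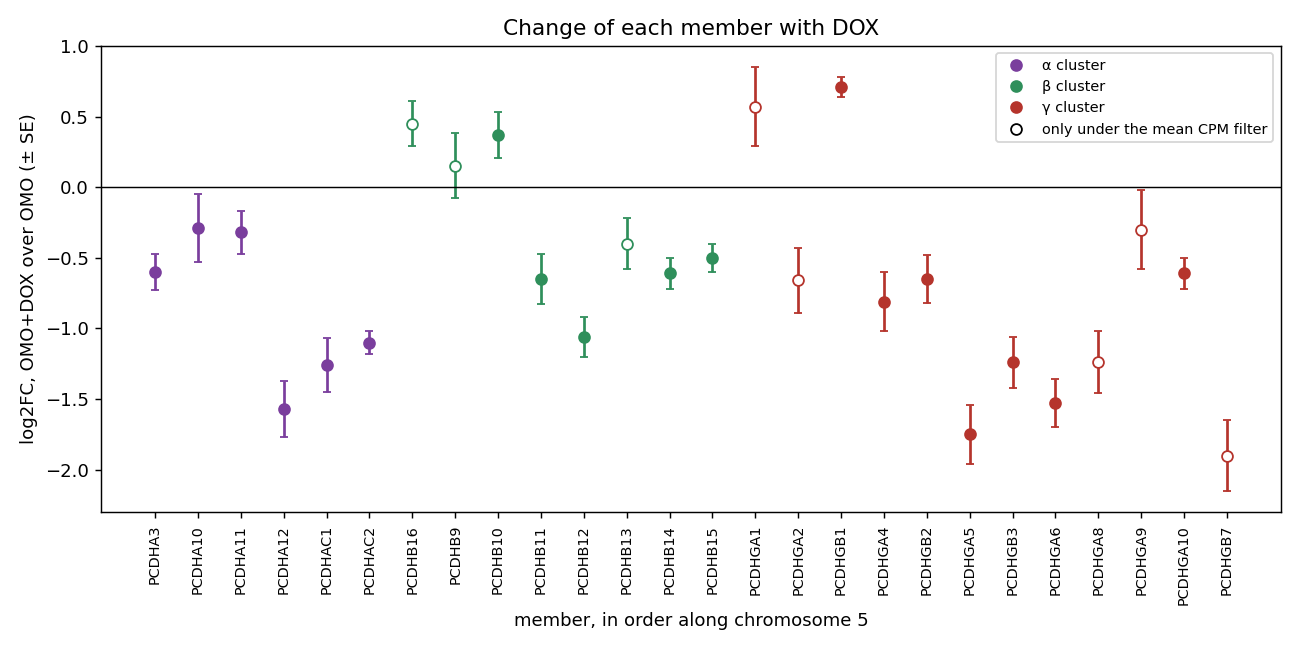
Log2FC of OMO+DOX over OMO with its SE for the 18 members tested (filled) and 8 more that were tested only with the mean CPM filter (open), coloured by cluster. Filled points run from -1.75 for PCDHGA5 to 0.71 for PCDHGB1.

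The α cluster was dominated by its last gene, PCDHAC2, a C-type member at the cluster's end. PCDHAC2 (ENSG00000243232.6, bases 140966235 to 141012344) was at 135, 120, 104 and 130 CPM in OMO and at 57.9, 59.1, 54.3 and 56.9 CPM in OMO+DOX. The groups lay far apart, and the level fell 2.14-fold (log2FC -1.10, SE 0.08, adjusted p = 8.66e-08, edgeR). In OMO it ranked 1590 of the 15222 genes tested by mean CPM. Per kb of transcript it was at 20.5 CPM in OMO and 9.56 in OMO+DOX, above every other member in both groups. Its share of the summed α level was 83.0 ± 1.49% in OMO and 78.4 ± 1.89% in OMO+DOX, without overlap (SD, n = 4).

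PCDHAC1, the other α C-type gene, was at 7.27, 7.92, 4.21 and 7.73 CPM in OMO and at 3.24, 2.98, 2.48 and 2.64 CPM in OMO+DOX. It fell (log2FC -1.26, SE 0.19, adjusted p = 6.68e-05, edgeR), and OMO_3 lay closest to the treated libraries. Both α C-type genes thus fell by more than 2-fold, as did 9.81% of all genes tested.

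Among the alternate α genes, of which single neurons choose a few, RNA was found mainly for PCDHA11, PCDHA3, PCDHA12 and PCDHA10. PCDHA12 was at 2.59, 2.46, 1.43 and 2.14 CPM in OMO and at 0.856, 0.717, 0.592 and 0.723 CPM in OMO+DOX. It fell without overlap (log2FC -1.57, SE 0.20, adjusted p = 2.14e-05, edgeR). PCDHA3 ran from 4.21 to 4.69 CPM in OMO and from 2.44 to 3.86 in OMO+DOX (log2FC -0.60, SE 0.13, adjusted p = 0.00128, edgeR). PCDHA11 was at 11.1, 10.4, 7.05 and 7.54 CPM in OMO and at 8.52, 6.09, 7.26 and 7.02 CPM in OMO+DOX. These groups overlapped (log2FC -0.32, SE 0.15, adjusted p = 0.0758, edgeR), and PCDHA11 passed the test when OMO_3, OMO_4 or OMO+DOX_1 was left out (log2FC -0.43, -0.40 and -0.41, adjusted p = 0.00834, 0.0356 and 0.0418, edgeR) and with no filter on low counts (log2FC -0.35, adjusted p = 0.0173, edgeR). PCDHA10 overlapped as well, with 0.896 to 2.19 CPM in OMO and 1.13 to 1.31 CPM in OMO+DOX. The other 9 α genes, PCDHA1, PCDHA2, PCDHA4 to PCDHA9 and PCDHA13, stayed at or under 0.518 CPM in every library, and PCDHA6 at or under the floor in all. Of these, PCDHA13, named after its values were seen, had 58 rounded expected counts over the OMO and 12 over the OMO+DOX libraries. The ratio was 4.66 (2.48 to 9.53, 95% interval, counting error only). Its OMO libraries ran from 0.0927 to 0.518 CPM, and its groups overlapped.

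Of the 5 β genes tested 4 fell, and all were under 5 CPM. PCDHB15 (ENSG00000113248.6), the last gene of the cluster, was at 4.14, 3.85, 3.63 and 3.70 CPM in OMO and at 2.78, 2.61, 2.46 and 2.98 CPM in OMO+DOX (log2FC -0.50, SE 0.10, adjusted p = 0.000492, edgeR). Its neighbour PCDHB14 was at 3.32, 3.05, 2.90 and 2.92 CPM and then at 1.96, 2.07, 2.25 and 1.68 CPM (log2FC -0.61, SE 0.11, adjusted p = 0.000348, edgeR). In both, every treated library lay under every untreated one. PCDHB11 was at 3.15, 3.17, 2.28 and 2.46 CPM in OMO and at 2.19, 1.19, 1.92 and 1.67 CPM in OMO+DOX (log2FC -0.65, SE 0.18, adjusted p = 0.00569, edgeR). PCDHB12 was at 1.42, 1.06, 1.17 and 1.24 CPM and then at 0.558, 0.607, 0.569 and 0.616 CPM (log2FC -1.06, SE 0.14, adjusted p = 3.24e-05, edgeR).

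PCDHB10 and PCDHB16 lie further upstream in the β cluster. PCDHB10 was at 0.953, 1.10, 0.789 and 0.772 CPM in OMO and at 1.39, 1.08, 1.15 and 1.05 CPM in OMO+DOX, with overlap and no call (log2FC 0.37, SE 0.16, adjusted p = 0.0527, edgeR). It passed the test upwards with library size only, with the filter of over 4 libraries and without OMO_2. PCDHB16, named after its values were seen, was at 0.633, 0.83, 0.698 and 0.83 CPM and then at 1.10, 1.02, 1.07 and 0.888 CPM. It did not pass the main filter. Under the mean CPM filter it rose (log2FC 0.45, SE 0.16, adjusted p = 0.0216, edgeR), and with no filter on low counts it did not pass the test (log2FC 0.43, adjusted p = 0.0794, edgeR). The share of the summed β level went from 5.96 ± 0.722% to 9.85 ± 0.943% for PCDHB10 and from 4.98 ± 0.849% to 8.63 ± 0.630% for PCDHB16 (SD, n = 4). Of the 11 β genes that were not tested, PCDHB13 reached 1.15 CPM, PCDHB9 0.719 CPM and PCDHB3 0.608 CPM at most. PCDHB2, PCDHB4, PCDHB5, PCDHB7 and PCDHB8 stayed at or under 0.344 CPM, and PCDHB1 and PCDHB6 at or under the floor in every library.

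In the γ cluster 1 gene rose while 6 fell. PCDHGB1 (ENSG00000254221.2, bases 141350102 to 141512979) was at 7.92, 7.72, 6.61 and 8.29 CPM in OMO and at 12.4, 12.6, 12.5 and 12.5 CPM in OMO+DOX. The treated libraries were close to one another and all above the untreated ones, and the level rose 1.64-fold (log2FC 0.71, SE 0.07, adjusted p = 3.00e-06, edgeR). Its share of the summed γ level went from 22.9 ± 1.35% (21.4 to 24.7%) to 46.8 ± 2.33% (44.0 to 49.5%). Per kb it was at 1.66 CPM in OMO and 2.73 in OMO+DOX, second among the members to PCDHAC2 in both groups.

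The next gene downstream did not share this rise, and the next upstream was too low to tell. PCDHGA4, the next γ gene downstream, ran from 2.44 to 4.35 CPM in OMO and from 1.48 to 2.16 in OMO+DOX (log2FC -0.81, SE 0.21, adjusted p = 0.00381, edgeR), and PCDHGA3, the next upstream, stayed at or under 0.149 CPM. PCDHGB2 was at 2.89, 3.32, 3.10 and 3.34 CPM in OMO and at 2.30, 1.20, 2.26 and 2.24 CPM in OMO+DOX (log2FC -0.65, SE 0.17, adjusted p = 0.00477, edgeR). PCDHGA5 was at 2.02, 1.88, 1.24 and 2 CPM and then at 0.612, 0.511, 0.374 and 0.610 CPM, a 3.39-fold fall (log2FC -1.75, SE 0.21, adjusted p = 1.05e-05, edgeR). PCDHGA5 reached 1 CPM in untreated libraries only.

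PCDHGB3 and PCDHGA6, which follow PCDHGA5 along the chromosome, fell too. PCDHGB3 was at 1.93, 2.08, 1.37 and 1.46 CPM in OMO and at 0.833, 0.746, 0.632 and 0.713 CPM in OMO+DOX (log2FC -1.24, SE 0.18, adjusted p = 4.77e-05, edgeR). PCDHGA6 was at 3.23, 3.03, 2.92 and 3.60 CPM and then at 1.41, 0.923, 0.797 and 1.28 CPM (log2FC -1.53, SE 0.17, adjusted p = 4.93e-06, edgeR). PCDHGA10, the second most abundant γ gene, was at 6.67, 5.62, 5.06 and 6.33 CPM and then at 4.41, 3.51, 3.77 and 3.74 CPM (log2FC -0.61, SE 0.11, adjusted p = 0.000279, edgeR). In all 3 the treated libraries lay under the untreated ones.

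Of the 15 γ genes not tested, 4 had lower levels without overlap: PCDHGA8, PCDHGB6, PCDHGB7 and PCDHGA11, named after their values were seen. Of all 6884 genes not tested with a mean CPM above the floor, 14.3% were lower without overlap and 22.5% higher, and of the 26 members among them 4 were lower and 1, PCDHB16, higher. PCDHGB7 was at 1.35, 0.781, 1.13 and 1.03 CPM in OMO and at 0.276, 0.199, 0.411 and 0.251 CPM in OMO+DOX. The ratio of its rounded expected counts was 3.71 (2.74 to 5.11, 95% interval, counting error only). PCDHGA11 was at 0.397, 0.5, 0.578 and 0.291 CPM in OMO and, near the floor, at 0.0664, 0.0571, 0.0661 and 0.05 CPM in OMO+DOX. Its rounded expected counts were 86 against 10, a ratio of 8.29 (4.3 to 17.9, 95% interval, counting error only). With no filter PCDHGA11 was the 1 member past the thresholds of the study. Of the γ C-type genes, which lie next to the constant exons, PCDHGC3 was at 0.114, 0.0693, 0 and 0.0896 CPM in OMO and at 0.0617, 0, 0 and 0 CPM in OMO+DOX. PCDHGC4 was at 0.0612, 0.0387, 0 and 0.0809 CPM and then at 0.0741, 0.171, 0.0604 and 0.0220 CPM. PCDHGC5 was at 0.350, 0.312, 0.221 and 0.0448 CPM and then at 0.361, 0.569, 0.486 and 0.167 CPM. All 3 overlapped between the groups and lay near the floor or not far above it, in contrast to the α C-type genes. The other 8, PCDHGA1, PCDHGA2, PCDHGA3, PCDHGA7, PCDHGA9, PCDHGA12, PCDHGB4 and PCDHGB5, overlapped between the groups and reached 1.11 CPM at most.

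**Figure D3:**
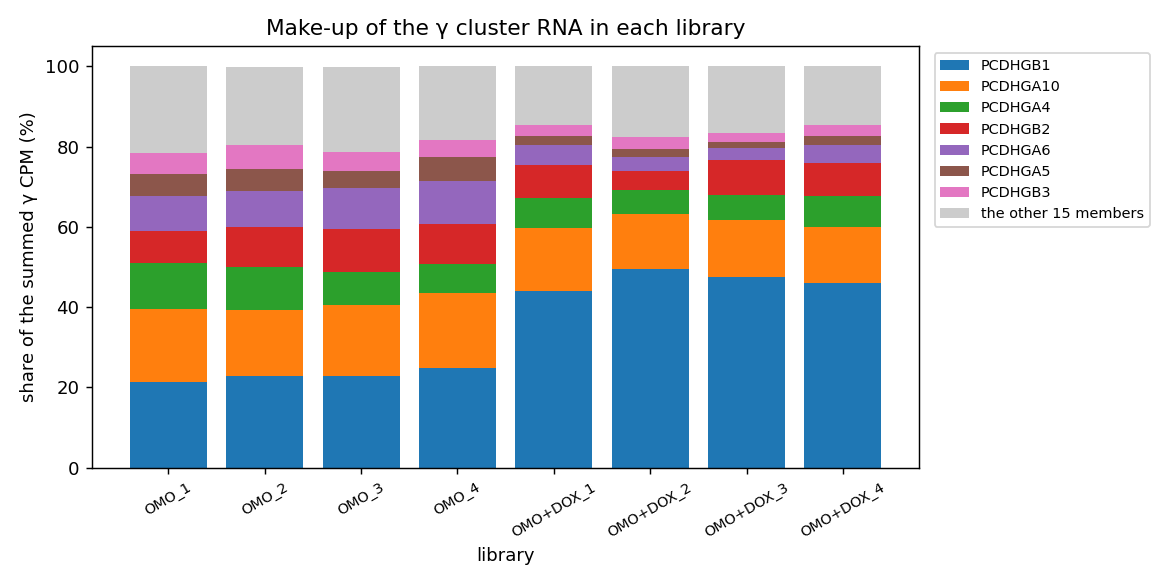
Share of the summed γ CPM, in percent, taken by the 7 γ genes tested and by the other 15 together, for each of the 8 libraries. PCDHGB1 takes 21.4 to 24.7% in OMO and 44.0 to 49.5% in OMO+DOX.

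Summed over all its genes, the α cluster was at 164, 148, 123 and 155 CPM in OMO and at 76.3, 73.5, 69.2 and 72.0 CPM in OMO+DOX, 2.02-fold lower. The sums do not depend on how reads were divided within a cluster, and none was tested. The β sum went from 15.1 ± 1.35 to 11.8 ± 0.435 CPM, 1.28-fold lower, and the γ sum from 33.4 ± 3.37 to 26.8 ± 1.24 CPM, 1.25-fold lower (SD, n = 4). In each cluster every treated library lay under every untreated one. Without PCDHAC2 the α sum was 1.59-fold lower, from 25.2 ± 4.38 to 15.8 ± 1.84 CPM, and without PCDHGB1 the γ sum was 1.80-fold lower, from 25.7 ± 2.82 to 14.3 ± 1.28 CPM.

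**Figure D4:**
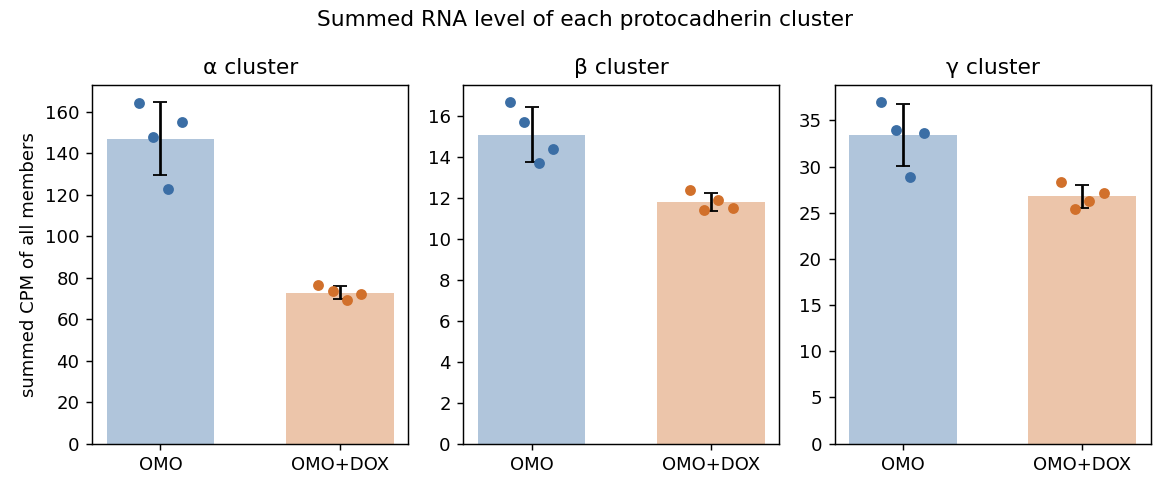
Summed CPM of all members of each cluster, with a point per library and bars at the mean ± SD of 4 libraries. The axes start at 0 and differ in scale: α goes from 147 to 72.8, β from 15.1 to 11.8 and γ from 33.4 to 26.8 CPM.

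Of the annotated antisense genes within the locus, 2 that lie at the starts of PCDHAC2 and PCDHGB1 were named after their values were seen. AC010223.1 (ENSG00000279028.1, reverse strand, bases 140966212 to 140966490), at the start of PCDHAC2, was at 0.775, 0.522, 0.468 and 0.381 CPM in OMO and at 0.118, 0.0997, 0.235 and 0.264 CPM in OMO+DOX. AC005618.3 (ENSG00000280026.1, reverse strand, bases 141350109 to 141350662), opposite the variable exon of PCDHGB1, was at 0.307, 0.445, 0.317 and 0.446 CPM and then at 1.51, 1.14, 0.642 and 0.929 CPM. Neither passed the filter. The groups did not overlap in either, lower for the first and higher for the second, like the gene on the other strand. Of all genes not tested with a mean CPM above the floor, 14.3% were lower without overlap and 22.5% higher. Whether counting used the strand is not given in the sources used here. The reads of these 2 genes therefore cannot be told apart from those of the partner gene. Another antisense gene, AC244517.4 (reverse strand, bases 141183401 to 141201396), lies across the start of PCDHB11, which fell, and was itself higher without overlap. It was at 0 to 0.00484 CPM in OMO, under the floor, and at 0.0371 to 0.135 CPM in OMO+DOX.

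Genes beside and between the clusters were called about as often as all genes. Of 22 neighbours, cluster pseudogenes included, 14 were tested, 4 rose and 7 fell, where 38.5% and 38.1% of all genes did, and 3 did not pass, with a median log2FC of -0.14. TAF7, a TFIID subunit gene between the β and γ clusters and named after its values were seen, fell from 167 ± 5.46 to 138 ± 4.29 CPM (log2FC -0.28, SE 0.04, adjusted p = 0.000127, edgeR). ARAP3, a GTPase-activating protein gene beyond the γ cluster, rose (log2FC 1.12, adjusted p = 4.87e-09), as did FCHSD1 (log2FC 0.77, adjusted p = 1.14e-07) and WDR55 (log2FC 0.50, adjusted p = 7.93e-07) in edgeR. IK, a splicing factor gene before the α cluster (log2FC -0.71, adjusted p = 9.94e-08), DIAPH1, an actin-nucleating formin gene (log2FC -0.57, adjusted p = 6.53e-07), and TMCO6 (log2FC -0.54, adjusted p = 6.41e-06) fell in edgeR.

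Factors known to act on these promoters, on chromatin loops or on DNA methylation moved in both directions. All 26 on the list were tested, 16 fell and 8 rose, where 38.1% and 38.5% of all genes did. The other 2 (WAPL and SMCHD1) did not pass, and the median log2FC was -0.23. With library size only in place of TMM, 12 fell and 8 rose, and shares over all genes are not given for that scaling. DNMT1, the maintenance DNA methyltransferase, fell from 322 ± 9.05 to 136 ± 5.79 CPM (log2FC -1.24, SE 0.05, adjusted p = 4.36e-10, edgeR). The cohesin subunit gene RAD21 fell from 1280 ± 45.7 to 653 ± 18.9 CPM (log2FC -0.97, SE 0.04, adjusted p = 2.12e-09, edgeR). The cohesin genes SMC3 (log2FC -0.60, adjusted p = 3.84e-07), STAG2 (log2FC -0.88, adjusted p = 1.61e-06) and STAG1 (log2FC -0.61, adjusted p = 2.07e-06) fell as well in edgeR. CTCF, which binds the promoters and their enhancers and was named after its values were seen, was at 63.3 ± 1.67 and 57.9 ± 1.06 CPM (log2FC -0.13, SE 0.04, adjusted p = 0.0131, edgeR). With library size only the median log2FC of all genes was 0.14 in place of 0.01, so a fall this small rests on the scaling. SETDB1, a histone H3 lysine methyltransferase gene, rose (log2FC 0.43, SE 0.04, adjusted p = 8.29e-07, edgeR). Protein levels, methylation and binding were not measured in these libraries.

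Genes of proteins known to bind, signal from or cleave clustered protocadherins were also called about as often as all genes. Of 24, 23 were tested, 10 rose and 8 fell, where 38.5% and 38.1% of all genes did, and 5 did not pass. The median log2FC was -0.07, and RET was at the floor. With library size only in place of TMM, 11 rose and 5 fell, and shares over all genes are not given for that scaling. NLGN1, a postsynaptic adhesion protein gene, rose from 4.66 ± 0.883 to 32 ± 2.05 CPM (log2FC 2.78, SE 0.11, adjusted p = 7.00e-10, edgeR). WASF1, an actin regulator of the WAVE complex to which protocadherins can bind, rose from 59.6 ± 1.20 to 249 ± 4.02 CPM (log2FC 2.06, SE 0.04, adjusted p = 2.61e-12, edgeR). These 2 were the only genes of the list past the thresholds of the study. CYFIP2, of the same complex, rose (log2FC 0.76, adjusted p = 1.31e-08), as did PSEN2, a catalytic γ-secretase subunit (log2FC 0.85, adjusted p = 6.68e-09), in edgeR. ABI1, also of the WAVE complex (log2FC -0.60, adjusted p = 6.92e-08), and the GTPase gene RAC1 (log2FC -0.62, adjusted p = 1.65e-07) fell in edgeR.

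**Figure D5:**
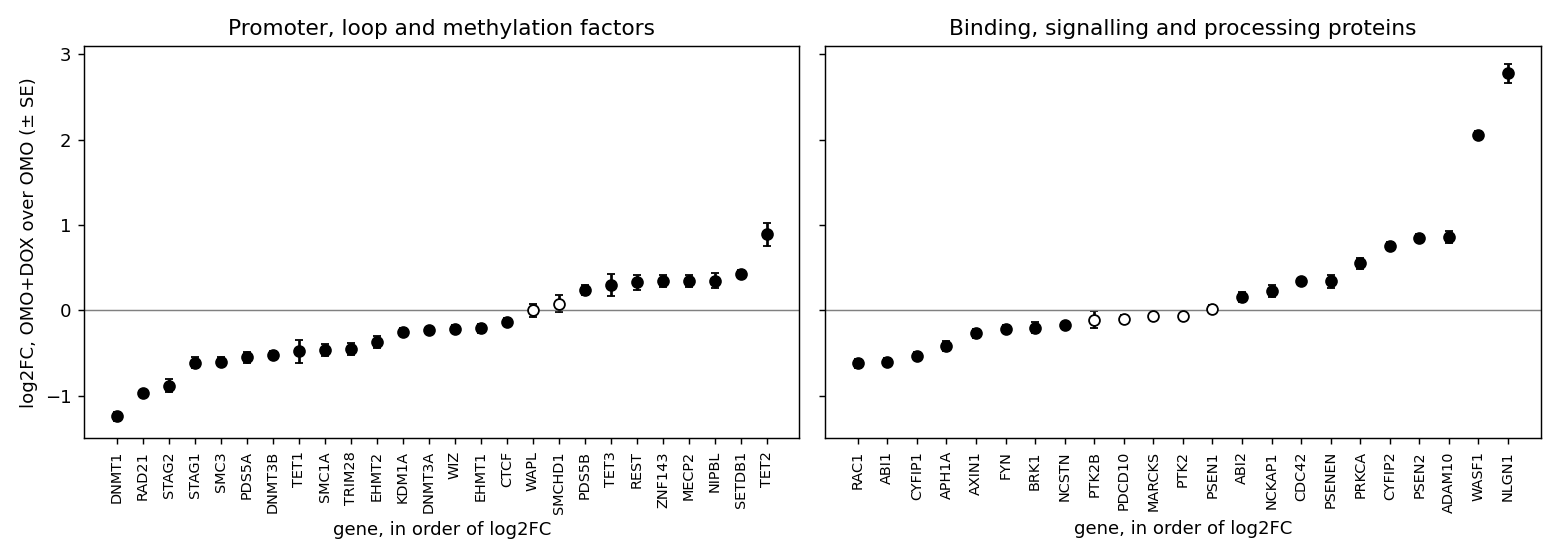
Log2FC of OMO+DOX over OMO with its SE for the 26 promoter, loop and methylation factors (left) and the 23 binding, signalling and processing proteins tested (right), ordered by log2FC, with filled points at an adjusted p below 0.05. DNMT1 and RAD21 are lowest on the left and NLGN1 and WASF1 highest on the right.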

How the data were processed

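PolyA+ libraries were prepared from 4 untreated and 4 DOX-treated (72 h) replicates of D283-OMO cells with a stranded kit. The authors used Trim Galore for trimming, STAR for alignment (GRCh38, GENCODE release 32) and RSEM for quantification, and deposited its expected counts per gene. Tool versions and the strand setting are not given in the sources used here. RSEM divides reads that match several genes, so the values of genes with shared exons are estimates. Expected counts were rounded and tested with edgeR 4.0.16 in R 4.3.3 (TMM, quasi-likelihood test, genes above 1 CPM in 4 or more of 8 libraries, Benjamini-Hochberg adjustment, no covariates). On simulated data, all 100 genes planted at an absolute log2FC of 1 and all 100 at 2 were recovered, with 15 false calls among 15222 genes. The planted changes were few and balanced, and every gene was given the same dispersion. The recovery therefore does not carry over to low or variable members, nor to data in which most genes change. Symbols and coordinates come from GENCODE 29 and promoter windows from RefSeq. Depth was 38390696 to 54020506 counts, and floors of 3 counts cover counting error alone, because PCR copies of a molecule cannot be recognised. Named members are the 3 highest and the 3 most changed of each cluster, all C-type genes and any past the thresholds of the study; up to 6 genes of each list are named by adjusted p, and others where the text says so or to name those that did not pass. Alternatives were other scalings, tests and filters, a replicate block and each library left out. Members and lists were chosen with earlier results of these data known. Other steps were run in Python 3.11.15 (pandas 2.3.3, numpy 2.4.6, matplotlib 3.10.9). The result of 1 further marker list is not reported here.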

Additional observations from a re-analysis of the deposited data

Results flagged for a closer look

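PCDHGB2 was at 1.20 CPM in OMO+DOX_2, apart from the other treated libraries, of which the next was at 2.24 CPM, and OMO+DOX_2 was also the library of lowest depth. PCDHGC3 was at 0.0617 CPM in OMO+DOX_1 and at 0 in the other 3 treated libraries, a difference of about 3 counts. These were 2 of 40 groups of 4 libraries that were checked for a library far from the others, and chance gives about 2.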

How the results depend on the processing

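No direction reversed, and no member called under the main filter lost its call under any alternative in which it was tested. Of the 14 members lower in the report, 14 were lower under every setting except the filter that asks for over 4 libraries above 1 CPM, which left 14 members to test, with 10 of the 14 lower. With library size only, which moved the median log2FC of all genes from 0.01 to 0.14, 2 members were higher (PCDHB10 beside PCDHGB1). In that setting 5 partner genes were lower in place of 8, and 12 of the promoter, loop and methylation factors in place of 16. With no filter on low counts 53 members were tested, 23 were lower and 1, PCDHGA11, passed the thresholds of the study. With filterByExpr 34 were tested, 20 were lower, 2 were higher (PCDHB16 beside PCDHGB1) and 1, PCDHGA11, passed those thresholds. Shares over all genes are not given for these 2 filters, for library size only, for the replicate block or with 1 library left out. Counts under those settings are a description only. The filter of more than 4 libraries gave 2 higher (with PCDHB10), and the mean CPM filter, chosen after seeing the data, 2 (with PCDHB16). Leaving out 1 library gave 1 to 2 members higher, the second being PCDHB10 without OMO_2, and 14 to 16 lower, with PCDHA10 added without OMO_3 and PCDHA11 without OMO_3, OMO_4 or OMO+DOX_1. The causes were not tested. PCDHA11 also passed with no filter (log2FC -0.35, adjusted p = 0.0173, edgeR). Same-numbered libraries deviated together with r of 0.20, 0.182, 0.314 and -0.24, so the numbers were not taken to pair them; with the replicate block PCDHA11 was called (log2FC -0.30, adjusted p = 0.0387, edgeR), and 1 member was higher as before. In a single library, a level of 3 counts or fewer, at most 0.0748 CPM, could not be told from 0.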
